A study of Homo sapiens with 2 samples.

Results

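The regions described here are the ATAC-seq peaks around 4 genes of the BCL2 family, BCL2, MCL1, BCL2L1 and BCL2L11, in RPMI-8402 and Jurkat, which are established human cell lines derived from T-cell acute lymphoblastic leukaemia. In ATAC-seq the Tn5 transposase cuts and tags accessible DNA, so that open regulatory regions appear as peaks of sequenced fragments. Both lines were grown in RPMI-1640 medium with tetracycline-free serum and antibiotics, without any other treatment as far as the labels say. Each line was represented by 1 library, so no difference below has a replicate error, none was tested between the lines, and the intervals cover counting error only. A peak was taken when its summit lay in one of 4 windows on hg19, at chr18:60750000-61030000 for BCL2, chr1:150530000-150570000 for MCL1, chr20:30240000-30330000 for BCL2L1 and chr2:111850000-111950000 for BCL2L11. This gave 31 peaks of the 49792 in both lists, 15 of 24603 in RPMI-8402 and 16 of 25189 in Jurkat. The T-cell identity of the lines was not checked against marker genes, because no hg19 annotation was used here.

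Proteins of the BCL2 family decide at the mitochondrial outer membrane whether a stressed cell dies by apoptosis. BCL2, MCL1 and BCL-XL, the long protein product of BCL2L1, keep the pore formers BAX and BAK in check and so promote survival, while BIM, the product of BCL2L11, belongs to the BH3-only proteins that neutralise these guardians and activate the pore formers. In mouse thymus, BCL-XL is known for the survival of CD4+CD8+ thymocytes, BCL2 for that of mature T cells, MCL1 for survival at several stages, and BIM for the death of self-reactive thymocytes. Drugs that block BCL2 or its relatives are studied in leukaemia.

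The sequences just upstream of the gene starts are shown because the strongest peak of each window lies where the human gene map places the gene's start. That placement is general knowledge about these genes and was not computed, since the promoter sequences come from RefSeq on GRCh38.p14 and the peaks are on hg19. The table of 300-base promoters matched 3 of the 4 members, BCL2, BCL2L1 with 2 starts, and BCL2L11. Each runs 5′ to 3′ in the direction of transcription, from 250 bases before the start to 50 bases after it. Capitals mark every match, on either strand, to the GC box GGGCGG bound by SP and KLF factors or to the ETS-family motif CCGGAAGT. The BCL2 sequence is chr18:63319720-63320019 on the minus strand. The BCL2L1 sequences are chr20:31723914-31724213 for the upstream start and chr20:31722819-31723118 for the downstream start, both on the minus strand. The BCL2L11 sequence is chr2:111120664-111120963 on the plus strand.
BCL2: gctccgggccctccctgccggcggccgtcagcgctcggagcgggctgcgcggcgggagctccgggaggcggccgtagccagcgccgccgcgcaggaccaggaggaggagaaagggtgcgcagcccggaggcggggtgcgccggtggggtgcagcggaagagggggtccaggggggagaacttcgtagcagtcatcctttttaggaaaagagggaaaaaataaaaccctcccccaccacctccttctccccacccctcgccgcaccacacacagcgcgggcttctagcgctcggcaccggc
BCL2L1 upstream start: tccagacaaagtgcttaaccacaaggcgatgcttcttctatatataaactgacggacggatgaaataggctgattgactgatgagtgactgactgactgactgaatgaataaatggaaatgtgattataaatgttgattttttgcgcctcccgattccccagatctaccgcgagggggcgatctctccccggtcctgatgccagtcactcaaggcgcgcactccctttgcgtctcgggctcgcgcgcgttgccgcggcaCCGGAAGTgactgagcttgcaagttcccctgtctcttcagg
BCL2L1 downstream start: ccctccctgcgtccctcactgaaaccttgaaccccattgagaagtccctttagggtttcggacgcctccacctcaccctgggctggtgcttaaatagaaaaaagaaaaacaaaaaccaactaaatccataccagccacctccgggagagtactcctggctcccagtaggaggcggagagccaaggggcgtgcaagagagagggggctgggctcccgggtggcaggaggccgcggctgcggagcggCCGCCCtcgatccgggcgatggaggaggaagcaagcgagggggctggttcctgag
BCL2L11: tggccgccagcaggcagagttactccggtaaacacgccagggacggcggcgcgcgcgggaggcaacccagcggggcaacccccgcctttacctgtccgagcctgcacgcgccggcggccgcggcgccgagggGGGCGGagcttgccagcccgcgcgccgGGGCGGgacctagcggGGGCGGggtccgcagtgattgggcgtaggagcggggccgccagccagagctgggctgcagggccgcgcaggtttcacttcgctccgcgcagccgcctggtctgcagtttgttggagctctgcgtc

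These promoters differed in composition. The GC content was 74.7% at BCL2L11, 70.7% at BCL2, 61.3% at the downstream and 52.0% at the upstream BCL2L1 start, beside a median of 58.7% over 35116 RefSeq promoters of the same length. BCL2L11 held 3 GC boxes and the downstream BCL2L1 start held 1, a motif found in 45.0% of all promoters. The upstream BCL2L1 start held 1 ETS motif, which 4.14% of promoters hold, and 2 matches to TATAAA, which 11.5% hold. A match to the RUNX motif TGTGGT was found once at BCL2 and once at the upstream BCL2L1 start (13.1% of promoters), and CCAAT once at BCL2L11 (34.6%). CAGCTG (17.9%) and TGACGTCA (1.85%) had 0 matches in the 4 sequences. All motifs were searched on both strands, and a match is a description of the letters only.

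Across the 4 windows, most accessible sites were common to the lines. In RPMI-8402, 13 of 15 peaks overlapped a Jurkat peak by at least 1 bp, a share of 86.7% (95% exact binomial interval 59.5 to 98.3%), and in Jurkat 13 of 16 peaks had a RPMI-8402 partner, which is 81.2% (54.4 to 96.0%). The remaining peaks were 2 in RPMI-8402, both in the MCL1 window, and 3 in Jurkat, of which 1 lay in the BCL2 and 2 in the BCL2L11 window. Over the whole lists 31.9% of RPMI-8402 peaks and 32.6% of Jurkat peaks had no partner, values that lie inside the ranges the few peaks here allow. The 6 sites of the BCL2L1 window were found in both lines.

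Peak height is given as the summit pileup, which was solved from the deposited fold enrichment and p-value. It is taken as how many fragments stack on a peak's highest base, although the settings of the peak calling are not given. Over a whole list the median height was 38 fragments in RPMI-8402 and 37 in Jurkat. The gene-start peak of BCL2L1 was the highest in the 4 windows in both lines, followed by another BCL2L1 site in RPMI-8402 and by the BCL2 start in Jurkat. Sites are named after their window, whichever gene they belong to, and numbered within it by rising hg19 coordinate.

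**Figure D1:**
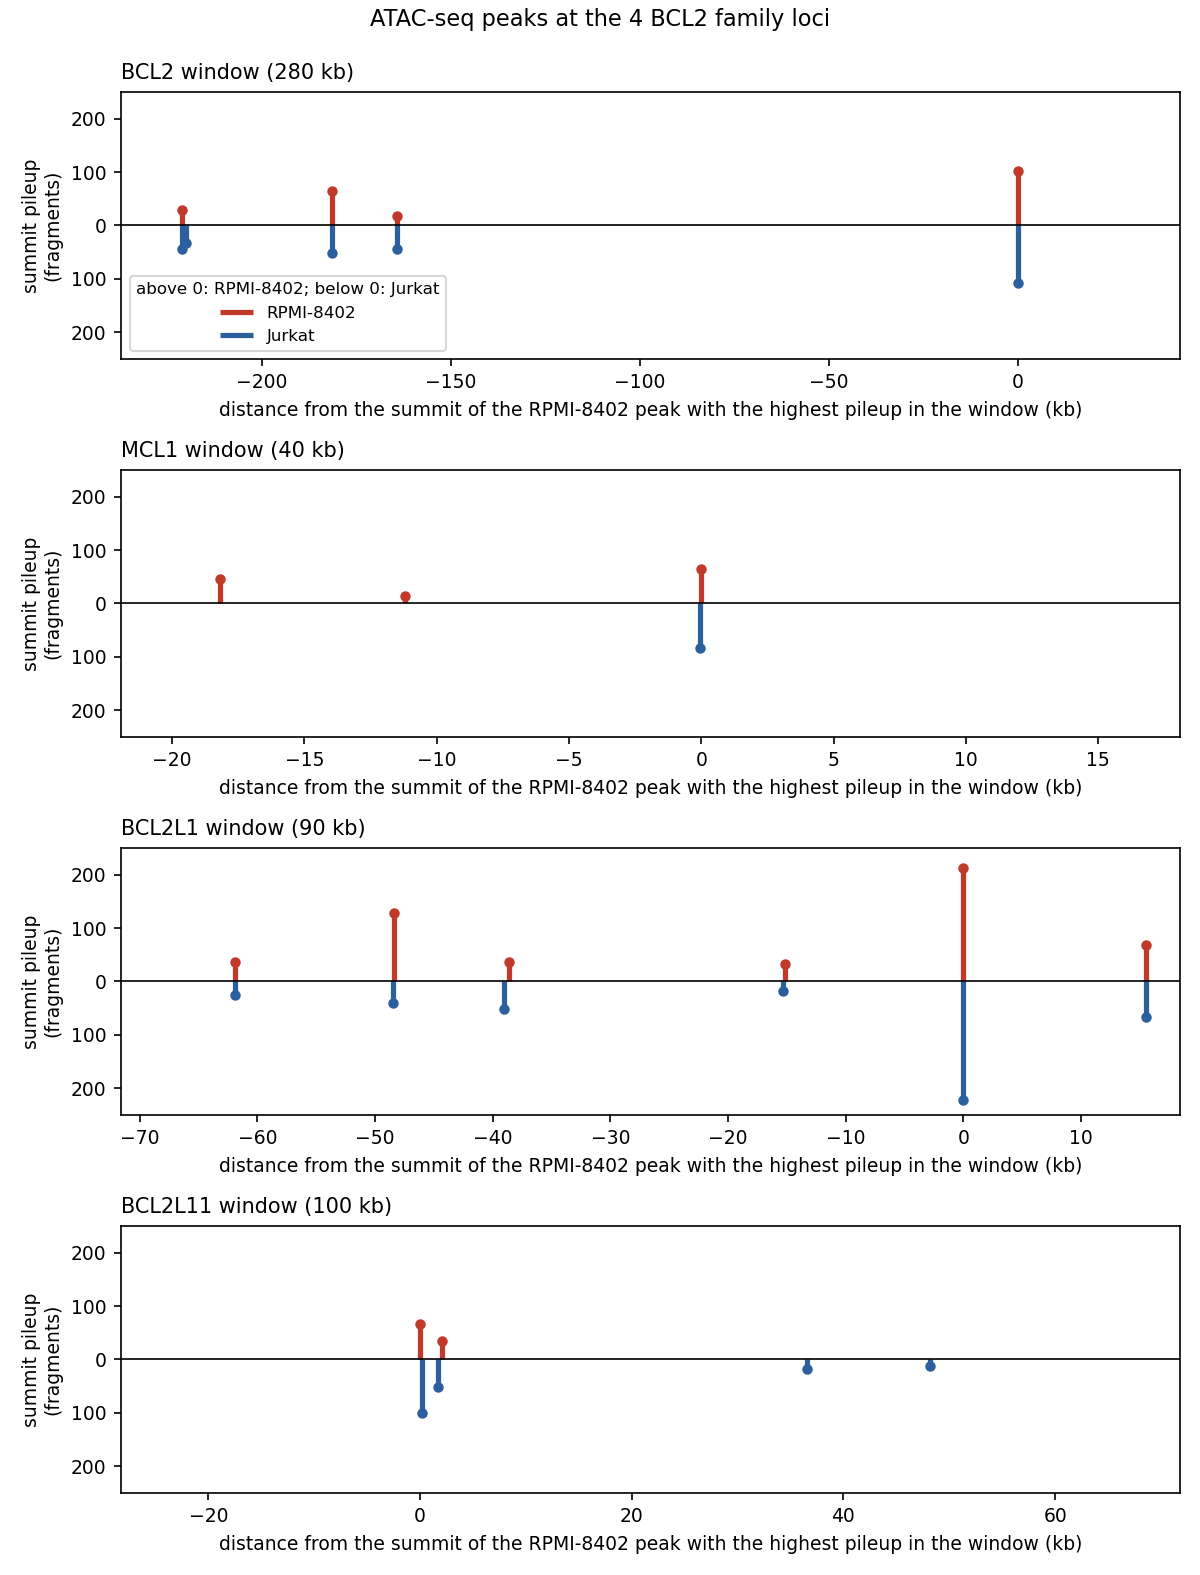
Summit pileup in fragments (vertical axis, RPMI-8402 above 0 and Jurkat below 0) against the distance in kb from the summit of the RPMI-8402 peak with the highest pileup in each window. The BCL2L1 start reaches 213 fragments in RPMI-8402 and 223 in Jurkat, the BCL2 window has a wide stretch without peaks left of its start, and the 2 left-hand MCL1 peaks stand in RPMI-8402 alone.

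BCL2, the founding survival gene of the family, had 4 peaks in RPMI-8402 and 5 in Jurkat in its 280-kb window. Windows of that width, tiled along each chromosome whether or not they hold genes, held a median of 2 RPMI-8402 peaks and 1 Jurkat peak. Of them, 22.4% held at least 4 in RPMI-8402 and 16.9% at least 5 in Jurkat. Site 5, at the gene's start, spanned chr18:60986863-60987949 in RPMI-8402 and chr18:60986943-60988066 in Jurkat. Its pileup was 102 fragments in RPMI-8402 (95% Poisson interval 83.2 to 124) and 108 in Jurkat (88.6 to 130), and the intervals overlap almost entirely. The peak ranked within the strongest 13.8% of RPMI-8402 peaks and 18.2% of Jurkat peaks by the authors' −log10 q. BCL2 is transcribed towards lower coordinates, and on that side 163.8 kb in RPMI-8402 and 163.7 kb in Jurkat held no peak before site 4.

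The pileups at the other BCL2 sites differed in direction, though the intervals of the lines overlap at sites 1 and 3. Site 3, at chr18:60805333-60806143 in RPMI-8402 and chr18:60805243-60805995 in Jurkat, had a pileup of 65 (50.2 to 82.8), against 52 (38.8 to 68.2) in Jurkat. Site 4, at chr18:60822618-60823078 in RPMI-8402 and chr18:60822603-60823194 in Jurkat, had a pileup of 17 (9.90 to 27.2) in RPMI-8402 and 45 (32.8 to 60.2) in Jurkat, and these intervals do not overlap. In RPMI-8402 site 3 lay 181.5 kb and site 4 164.4 kb from the start summit, so these sites were neighbours. Of them only site 4 had intervals that do not overlap, so opposite directions were not shown there. Site 1, farthest from the start, at chr18:60765625-60766568 in RPMI-8402 and chr18:60765456-60766477 in Jurkat, had 28 fragments (18.6 to 40.5) in RPMI-8402 and 45 (32.8 to 60.2) in Jurkat. Beside it stood site 2, chr18:60766965-60767402, a Jurkat peak of 33 fragments with a −log10 q of 8.01, whose nearest RPMI-8402 peak was site 1 at a gap of 396 bp.

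MCL1 encodes a short-lived survival protein. Its 40-kb window held 3 peaks in RPMI-8402 and 1 in Jurkat. Windows of this width with at least 3 RPMI-8402 peaks made up 1.24% of all such windows, and those with at least 1 Jurkat peak 24.1%. The shared peak, site 3, lay at the gene's start, at chr1:150551495-150552327 in RPMI-8402 and chr1:150551317-150552435 in Jurkat. It had a pileup of 64 (49.3 to 81.7) in RPMI-8402 and 84 (67.0 to 104) in Jurkat, with overlapping intervals, and a deposited fold enrichment of 10.0 in RPMI-8402 and 12.1 in Jurkat.

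Both peaks without a partner in the MCL1 window were called in RPMI-8402. Site 1, chr1:150533580-150534695, was 1116 bp wide, with a pileup of 46 (33.7 to 61.4) and a −log10 q of 18.4, close to the median of 19.99 in that list. Its nearest Jurkat peak was 16621 bp away. Site 2, chr1:150540191-150540722, had a pileup of 14 (7.65 to 23.5) and a −log10 q of 3.97, which placed it among the weakest calls of the list at rank 24247 of 24603. At the genome-wide background a Jurkat summit needed a pileup of 9 to be called and a RPMI-8402 summit one of 10, so weaker signal could not be called in either list. Where the local background was higher, a call needed more. It was 7.65 fragments per base at site 1 in RPMI-8402 and 6.01 at site 3 in Jurkat. The Jurkat background and pileup at sites 1 and 2 are not known.

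BCL2L1 yields BCL-XL and, by alternative splicing, a short form that promotes death. Its 90-kb window held 6 peaks in RPMI-8402 and 6 in Jurkat, numbers reached by 0.471% of windows of that width in RPMI-8402 and 0.666% in Jurkat. The median window of that width held 0 peaks in each line, whereas this one takes in a second gene start, that of TPX2. The peaks covered 6.52% of the window in RPMI-8402 and 4.78% in Jurkat, with mean widths of 978 bp in RPMI-8402 and 718 bp in Jurkat. Site 5, at the gene's start, had a pileup of 213 (185 to 244) in RPMI-8402, at chr20:30310443-30311868, and 223 (195 to 254) in Jurkat, at chr20:30310958-30311832. It ranked 542 of 24603 in RPMI-8402 and 625 of 25189 in Jurkat, within the strongest 2.20% of the RPMI-8402 list and 2.48% of the Jurkat list. The summits lay 12 bp apart, but the RPMI-8402 peak was 1426 bp wide and the Jurkat peak 875 bp, and the extra width lay on the side of lower coordinates, towards which BCL2L1 is transcribed.

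Site 6, at chr20:30326714-30327493 in RPMI-8402 and chr20:30326716-30327349 in Jurkat, lay on the other side of the start, 15.5 kb away. By general knowledge of the gene map it lies at the start of TPX2, which encodes a spindle assembly factor and is the next protein-coding gene in RefSeq order on GRCh38.p14. It had a pileup of 68 (52.8 to 86.2) in RPMI-8402 and 67 (51.9 to 85.1) in Jurkat, with both summits on the same base. Without scaling for library depth, which is not known, height at the TPX2 site and at the BCL2L1 start was thus nearly equal in the lines.

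Of the sites on the transcribed side of the BCL2L1 start, only site 2 had pileup intervals that do not overlap between the lines. Site 2, at chr20:30262812-30263969 in RPMI-8402 and chr20:30262895-30263736 in Jurkat, lay 48.4 kb from the start summit. Its pileup was 128 (107 to 152) in RPMI-8402 and 41 (29.4 to 55.6) in Jurkat, and the intervals do not overlap. It stood within the strongest 12.3% of the RPMI-8402 list and close to the middle of the Jurkat list, at 49.6%. Site 4, 15.1 kb from the start summit in RPMI-8402 and at chr20:30296144-30296835 there and chr20:30296208-30296590 in Jurkat, had 32 fragments (21.9 to 45.2) in RPMI-8402 and 18 (10.7 to 28.4) in Jurkat. Site 1, at chr20:30249284-30250149 in RPMI-8402 and chr20:30249310-30249985 in Jurkat, had 36 (25.2 to 49.8) in RPMI-8402 and 26 (17.0 to 38.1) in Jurkat. Site 3, at chr20:30272250-30273194 in RPMI-8402 and chr20:30272237-30273132 in Jurkat, had 37 (26.1 to 51.0) in RPMI-8402 and 52 (38.8 to 68.2) in Jurkat. Its intervals overlap, so an opposite direction was not shown at this site. Its summits lay 417 bp apart inside overlapping peaks, a distance at or above that of 97.3% of all pairs of the genome, whose median was 67 bp.

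BCL2L11 encodes BIM, the pro-apoptotic member of the group. Its 100-kb window held 2 peaks in RPMI-8402 and 4 in Jurkat, numbers reached by 19.6% of windows of that width in RPMI-8402 and 4.52% in Jurkat. Site 1, at the gene's start, had a pileup of 67 (51.9 to 85.1) in RPMI-8402, at chr2:111878075-111878858, and 101 (82.3 to 123) in Jurkat, at chr2:111877951-111879075. Site 2, whose summit was 2.12 kb from that of site 1 in RPMI-8402, had 34 fragments (23.5 to 47.5) in RPMI-8402 and 52 (38.8 to 68.2) in Jurkat. Site 1 was 784 bp wide in RPMI-8402 and 1125 bp in Jurkat, and site 2 was 310 bp wide in RPMI-8402 and 684 bp in Jurkat. The summits of the lines lay 234 bp apart at site 1 and 400 bp apart at site 2.

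On the transcribed side of the BCL2L11 start, 2 further sites were called in Jurkat and lay 36.6 and 48.2 kb from the RPMI-8402 start summit. Site 3, chr2:111914687-111915417, had a pileup of 18 (10.7 to 28.4) with a −log10 q of 8.23, and site 4, chr2:111926247-111926546, a pileup of 12 (6.20 to 21.0) with a −log10 q of 4.37. From the closest RPMI-8402 peak they were separated by 34245 and 45805 bp. Both were weak within their list, at ranks 20234 and 24538 of 25189.

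To compare height where both lines had a peak, the pileup ratio of RPMI-8402 over Jurkat was taken at the 13 paired sites and centred on the median of all 16494 pairs of the genome, which lay at −0.17 on the log2 scale. Relative to that median, 2 of the 13 sites were at least 2-fold higher in RPMI-8402, where 9.21% of all pairs were, and 1 was at least 2-fold higher in Jurkat, where 4.97% of all pairs were. The 13 sites had a median log2 ratio of 0.087, against 0 by construction for all pairs, with 7 above and 6 below 0. By window, the median was 0.42 over the 6 sites of the BCL2L1 window, −0.21 over the 4 BCL2 sites and −0.43 over the 2 BCL2L11 sites, and the MCL1 site had −0.22. The sign of 3 of these depended on the scaling. On the deposited fold the medians were −0.14 for BCL2L1, 0.22 for BCL2 and 0.26 for BCL2L11. Centred on its chromosome the BCL2 median was 0.11, and scaled by the genome-wide background, which puts the median of all pairs at −0.47, the BCL2L1 median was −0.056.

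**Figure D2:**
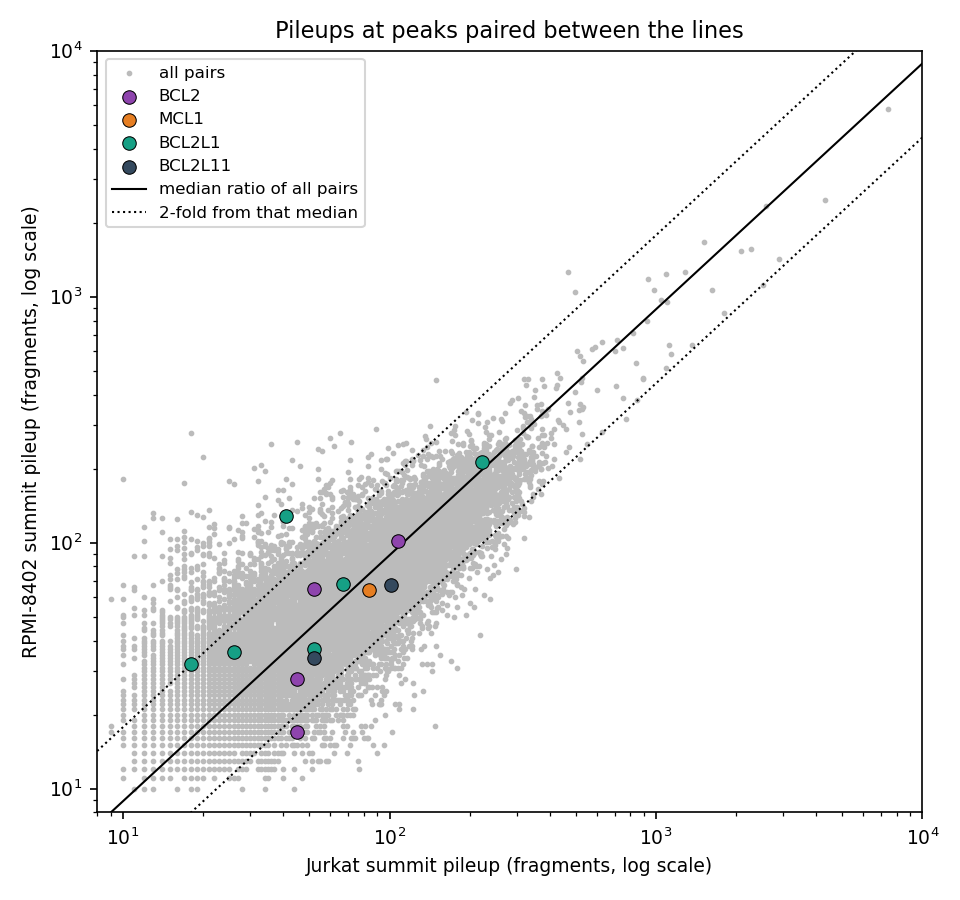
Summit pileup in RPMI-8402 (vertical) against Jurkat (horizontal), both on log axes, for all 16494 pairs (grey) and the 13 sites of the 4 loci (coloured by gene). The solid line is the median ratio of all pairs and the dotted lines lie 2-fold from it; BCL2L1 site 2, with 128 fragments in RPMI-8402 and 41 in Jurkat, stands above the upper dotted line and BCL2 site 4, with 17 in RPMI-8402 and 45 in Jurkat, below the lower one.

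At BCL2L1 site 2 the centred ratio was 3.51-fold (95% exact conditional interval 2.45 to 5.12), at or above that of 98.4% of all pairs. On the deposited fold enrichment, which was 8.14 in RPMI-8402 and 6.92 in Jurkat, the centred log2 difference was 0.48 and thus under 2-fold. The local background that the peak caller set there, which enters the fold, was 14.8 fragments per base in RPMI-8402 and 5.07 in Jurkat. BCL2 site 4 had a ratio of 0.425 (0.228 to 0.757), or 2.35-fold higher in Jurkat (1.32 to 4.39), and 2.34% of all pairs had a ratio as low or lower. That site was under 2-fold when centred on the pairs of chromosome 18 (log2 −0.91) and on the deposited fold (−0.69). BCL2L1 site 4 stood exactly at the 2-fold limit, with an interval of 1.09 to 3.78, and fell short of it when centred on chromosome 20 (0.64). The intervals of the centred ratio at the other 10 sites included 1, while over all pairs 18.8% had an interval above 1 and 19.9% one below 1.

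At the gene starts every counting interval of the centred ratio included 1. The centred ratio was 1.06 (0.803 to 1.41) at BCL2, 1.07 (0.886 to 1.30) at BCL2L1, 0.857 (0.609 to 1.201) at MCL1 and 0.746 (0.540 to 1.03) at BCL2L11. Under this centring, counting error alone thus allowed up to 1.41-fold more signal in RPMI-8402 at the BCL2 start and up to 1.85-fold more in Jurkat at the BCL2L11 start. Library depth is not known, and whether an interval includes 1 depends on the scaling. Scaled by the genome-wide background, the log2 ratio was −0.38 at BCL2, −0.37 at BCL2L1, −0.69 at MCL1 and −0.89 at BCL2L11. On the deposited fold these were 0.14, −0.39, −0.035 and 0.26. At BCL2L1 site 6, the TPX2 start, the centred log2 ratio was 0.19. It was −0.28 scaled by the genome-wide background and −0.29 on the deposited fold.

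**Figure D3:**
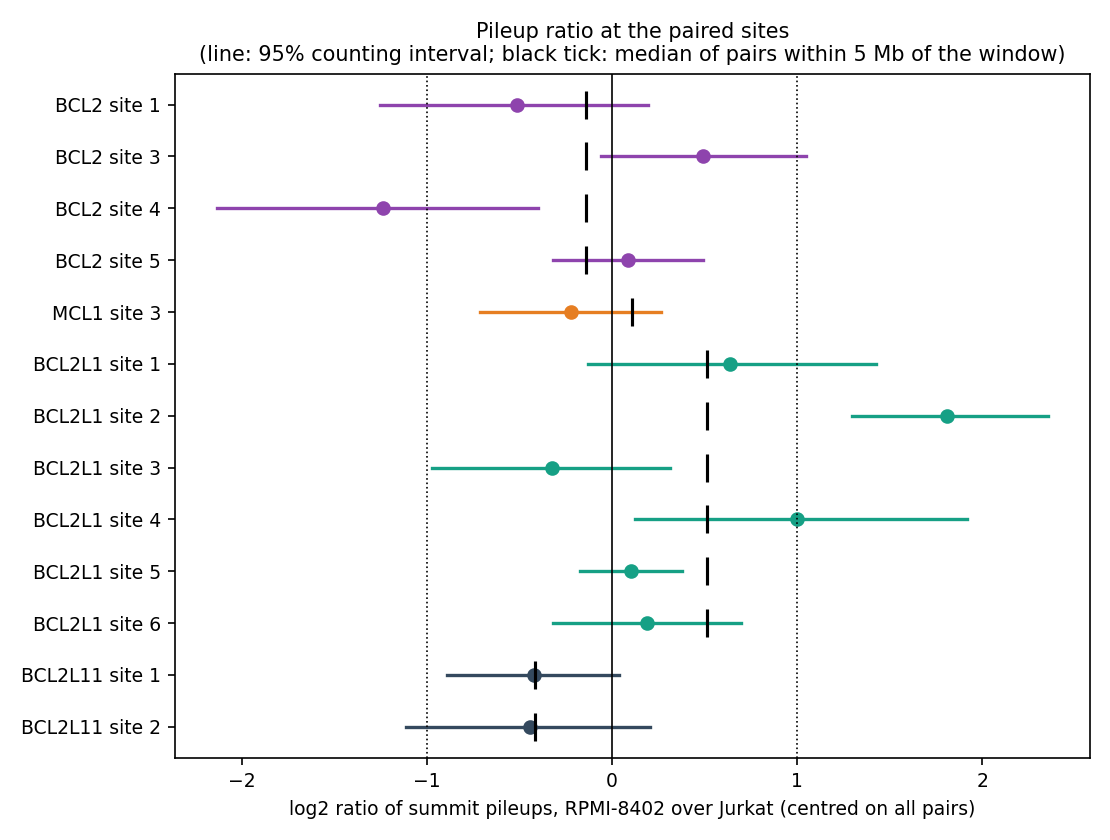
Centred log2 ratio of summit pileups, RPMI-8402 over Jurkat, at the 13 paired sites, with 95% counting intervals, and dotted lines at 2-fold. Black ticks give the median of all pairs within 5 Mb of each window, the window's own pairs included. It was 0.51 around BCL2L1 and −0.42 around BCL2L11, so that both BCL2L11 sites sit on their local median.

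The wider neighbourhoods of BCL2L1 and BCL2L11 had medians of the same sign as 5 of the 6 BCL2L1 sites, with site 3 the exception, and as both BCL2L11 sites. Each neighbourhood includes the pairs of its own window, which number 6 at BCL2L1, 2 at BCL2L11, 4 at BCL2 and 1 at MCL1. Within 5 Mb of the BCL2L1 window the centred log2 ratio had a median of 0.51 over 81 pairs (middle 50% of pairs 0.070 to 0.88), and over the 379 pairs of chromosome 20 it was 0.36. Against that local median, BCL2L1 site 2 kept a log2 ratio of 1.30, whereas the start site was at −0.41 and the median of the 6 sites at −0.10. Around BCL2L11 the 50 pairs had a median of −0.42 (−0.78 to 0.19), and the start site stood at −0.0072 and site 2 at −0.028 relative to it. For BCL2 the local median was −0.14 over 26 pairs and that of chromosome 18 was −0.32, and for MCL1 the local median was 0.11 over 116 pairs. The number of copies of these regions in each line, and its part in these ratios, was not tested.

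The local background at the peaks was higher in RPMI-8402 at 6 of 6 sites of the BCL2L1 window. Its ratios of RPMI-8402 to Jurkat there ran from 1.34 to 2.93, with a median of 1.73. It was lower at both BCL2L11 sites, with 0.636 at site 1 and 0.631 at site 2. Over all pairs the median ratio was 1.07, and the background was higher in RPMI-8402 at 57.3% of them. No control library is among the samples, so background and pileup come from the same library and are not independent. BCL2L11 sites 1 and 2 had nearly the same background, 14.6 and 14.1 in Jurkat, and 9.26 and 8.89 in RPMI-8402. This did not hold for all adjacent sites. At BCL2L1 sites 5 and 6 the background was 21.2 and 5.78 in RPMI-8402, and 13.9 and 3.62 in Jurkat. Pairs within 5 Mb, the windows' own pairs included, had backgrounds that differed in these same directions. Their median log2 ratio of backgrounds was 0.68 around BCL2L1 and −0.30 around BCL2L11. The BCL2L1 start had a background of 21.2 fragments per base in RPMI-8402 and 13.9 in Jurkat, so that nearly equal pileups gave a deposited fold of 9.65 in RPMI-8402 and 15.0 in Jurkat. At the BCL2L11 start the background was 9.26 in RPMI-8402 and 14.6 in Jurkat, and the fold was 6.63 in RPMI-8402 and 6.56 in Jurkat, with pileups of 67 in RPMI-8402 and 101 in Jurkat. The centred log2 ratio thus changed sign at both starts between the pileup, with 0.10 at BCL2L1 and −0.42 at BCL2L11, and the deposited fold, with −0.39 and 0.26. All 6 peaks of the BCL2L1 window, that at the TPX2 start included, were also wider in RPMI-8402, by 1.05 to 1.81 times. Of all pairs, 56.9% were wider in RPMI-8402.

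**Figure D4:**
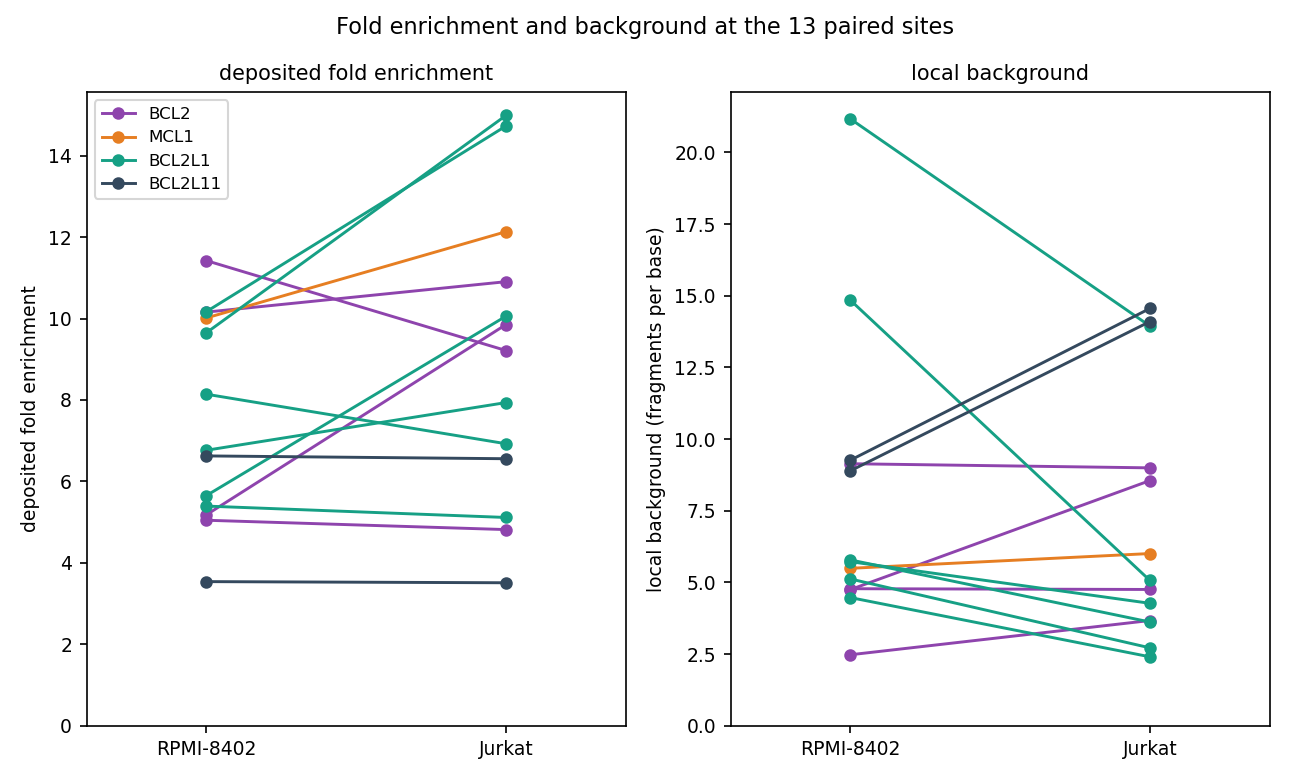
Deposited fold enrichment (left) and local background in fragments per base (right) at the 13 paired sites, with RPMI-8402 on the left and Jurkat on the right of each panel and 1 line per site, coloured by gene. In the background panel 6 of 6 BCL2L1 lines are higher at RPMI-8402 and both BCL2L11 lines higher at Jurkat, while the BCL2L11 lines are nearly level in the fold panel.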

How the data were processed

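Accessible chromatin was measured by ATAC-seq in 1 library of RPMI-8402 and 1 of Jurkat, as paired-end reads per the labels' protocols. The submitters' processing notes name Bowtie2, Picard, SAMtools, MACS2 2.1.1.2016030 and hg19 but give neither roles nor parameters. That the pileup counts fragments is therefore assumed, also in the counting intervals. There is 1 deposited peak list per library, so peaks were not called on pooled reads. Each list gives a score (the −log10 p-value times 10, truncated), a fold enrichment ratio and −log10 p and q-values, all the authors' own. Mitochondrial peaks (4 in RPMI-8402, 8 in Jurkat) were left out.

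Library depth is not given in the sources used here. Pileup and background at each summit were solved from fold and p-value with the formulas MACS2 is known to use: fold is pileup plus 1 over background plus 1, and p is a Poisson upper tail. The pileup came out whole within 0.01 for 100% of peaks in each list. The genome-wide background, the lowest one, was 1.96 fragments per base in RPMI-8402 and 1.59 in Jurkat, and the background scales with depth and fragment length. Pairs are 1-to-1 overlaps of at least 1 bp. Computations used Python 3.11.15, numpy 2.4.6, pandas 2.3.3 and scipy 1.17.1. The solving step was tested on simulated pileups and recovered 100% of them for 24603 RPMI-8402 and 25189 Jurkat peaks. These were built with the same formulas, so the recovery checks the arithmetic only, not whether the formulas hold for the deposited lists. PCR copies would make the counting intervals too narrow, and no artefact regions were filtered.

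The members, windows and lists were chosen with earlier results of these data known. Peaks were to be named by rank, by a 2-fold difference or by lack of a partner; with 31 peaks at 18 sites, every site is described. Alternatives were other overlaps, −log10 q of at least 10, other windows, merging peaks within 300 bp and other scalings. Introns, exons, UTRs and 25 other listed apoptosis genes were not analysed here, as this needs an hg19 annotation.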

Additional observations from a re-analysis of the deposited data

How the results depend on the processing

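No paired analysis was possible because there was a single library of each line, which also means that none could be omitted. Widening the windows by 50 kb gave 5 RPMI-8402 and 3 Jurkat peaks at MCL1, and −log10 q of at least 10 left 1 RPMI-8402 and 2 Jurkat peaks at BCL2L11. With that minimum in the list counted, 100% of Jurkat peaks were shared. The other 28 of 32 peak numbers stayed within 1.5 times and the other 7 of 8 shares inside the main interval. The median log2 ratio depended on the scaling and, for BCL2, on the minimum −log10 q. For BCL2 it was −0.68 scaled by the genome background, 0.22 on the deposited fold and 0.11 centred on the chromosome. The BCL2 median was 0.12 for pairs at −log10 q of at least 10, which leaves out site 4, at 7.30 in RPMI-8402. For BCL2L1 it was −0.056, −0.14 and 0.058 in the first 3 of these settings and −0.10 centred on 5 Mb. For BCL2L11 it was −0.90 scaled by the genome background, 0.26 on the deposited fold and −0.018 centred on 5 Mb. Beyond this dependence the cause was not tested. The remaining 17 of 28 medians moved by less than the counting interval. BCL2L1 site 2 stayed past 2-fold in 6 of 7 settings (0.48 to 1.85 in all 7), BCL2 site 4 in 4 of 6 (−1.71 to −0.69) and BCL2L1 site 4 in 1 of 6 (0.32 to 1.03). At the solved genome-wide background a call needed a pileup of 10 in RPMI-8402 and 9 in Jurkat, and weaker summits are not in the lists. Where the local background was higher, a call needed a higher pileup.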
